A study of Mus musculus with 8 samples.

Results

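Collagens are the main structural proteins of the extracellular matrix. They are built from chains that wind together into a helix, and in some types the chains come from separate genes. The nerve trunk holds several kinds. Fibrillar collagens form the cables of the epineurium and endoneurium, fibril-associated collagens sit on the surface of those cables, collagen VI forms beaded filaments, and collagen IV forms the sheet of the basement membrane around Schwann cells and vessels. After a nerve is cut, Schwann cells of the distal stump lose their myelin and enter a repair state in which the transcription factor c-Jun is active, and the matrix of the stump is reworked.

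The 34 collagen genes described here are a named list of fibrillar, basement membrane, fibril-associated and other collagens, found by symbol in the platform annotation. At least 1 probe set assigned to that gene alone was present for 33 of them, 61 probe sets in all, and Col28a1, which had none, is not analysed here. Of the 33 genes, 26 lay above the array median on at least 2 arrays. These were tested together with all other such genes, 12093 of the 18193 with a probe set. The 7 that did not pass were Col4a6, Col9a1, Col9a2, Col10a1, Col11a2, Col13a1 and Col17a1.

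RNA was measured on 8 mouse expression arrays in 4 groups of 2. The control groups (labelled WT) and the mutant groups (labelled c-Jun KO) came from adult mice whose sciatic nerve was cut at the sciatic notch. Each genotype gave 10 mm of the distal stump and the uninjured nerve of the other side, both taken 7 days after the cut, and every array held the pooled nerves of 4 or 6 mice. The mutant carries a c-Jun deletion whose promoter is not given here, nor are the strain and exact age. The uncut nerve came from operated mice, so it is an uninjured nerve of an injured animal. Nothing ties a cut and an uncut pool to the same mice, and the p-values measure the spread between pools only.

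Although the labels call the tissue adult Schwann cells, the design describes whole nerve segments, and markers of other cells were present in every group. The mean log2 level over 8 fibroblast markers was 12.06 to 12.22 in uncut nerve, and that over 6 macrophage markers was 9.76 to 10.13. In a whole segment, fewer cells of a type and less RNA per cell cannot be told apart. Jun, the targeted gene, read 11.88 and 11.96 in control cut nerve and 10.39 and 10.80 in mutant cut nerve (log2 difference -1.33, SE 0.14, limma adjusted p = 0.0087). It read 9.58 to 9.70 on the 4 uncut arrays, where the genotypes overlapped. All levels below are log2 values on the deposited, normalised scale, in which 1 unit is a 2-fold step. A difference is cut minus uncut or mutant minus control, from limma, with p adjusted over all genes tested and 0.05 as the threshold, and "rose", "fell" and "called" refer to that threshold. A pair of values given "from" and "to" is always the uncut nerve, then the cut nerve, both of the same day.

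The first question was what cutting the nerve did to collagen transcripts in control mice. Of the 26 genes measured, 14 rose, 3 fell and 9 were not called. The called share was 65.4%, where 40.3% of all genes tested were called, 22.8% as higher and 17.5% as lower. The multiplexin Col18a1 and the fibrillar Col1a1, Col5a2 and Col27a1 were among those with the greatest rise, and Col8a2, Col4a4 and Col4a3 fell. A called change of at least 2-fold was seen in 8 of the 26, beside 1511 of the 12093 genes tested. Col8a2, among these 8, was measured through the uncut arrays on which it was high, as described with that gene. The median difference over the 26 was 0.53, beside 0.05 over all genes. Cut and uncut arrays did not overlap in 24 of the 26 (92.3%), which was so for 73.1% of all genes.

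In mutant mice 15 rose, 2 fell and 9 were not called. The called share was again 65.4%, where 36% of all genes were called, 18.1% as higher and 17.8% as lower. The median difference was 0.42, beside -0.0013 over all genes. A called change of at least 2-fold was seen in 6 of the 26, again with Col8a2, beside 1370 of the 12093 genes tested. Cut and uncut arrays did not overlap in 22 of 26 (84.6%), beside 71% of all genes. Between the genotypes, 13 genes rose in both, Col4a4 and Col8a2 fell in both, and 0 were called in opposite directions. Col11a1 and Col4a3 were called in control mice alone, and Col12a1 and Col16a1 in mutant mice alone, although other probe sets of Col11a1 and Col12a1 gave other calls, as described with these genes. The test of the difference between genotypes, given further on, called none of these 4 genes.

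**Figure D1:**
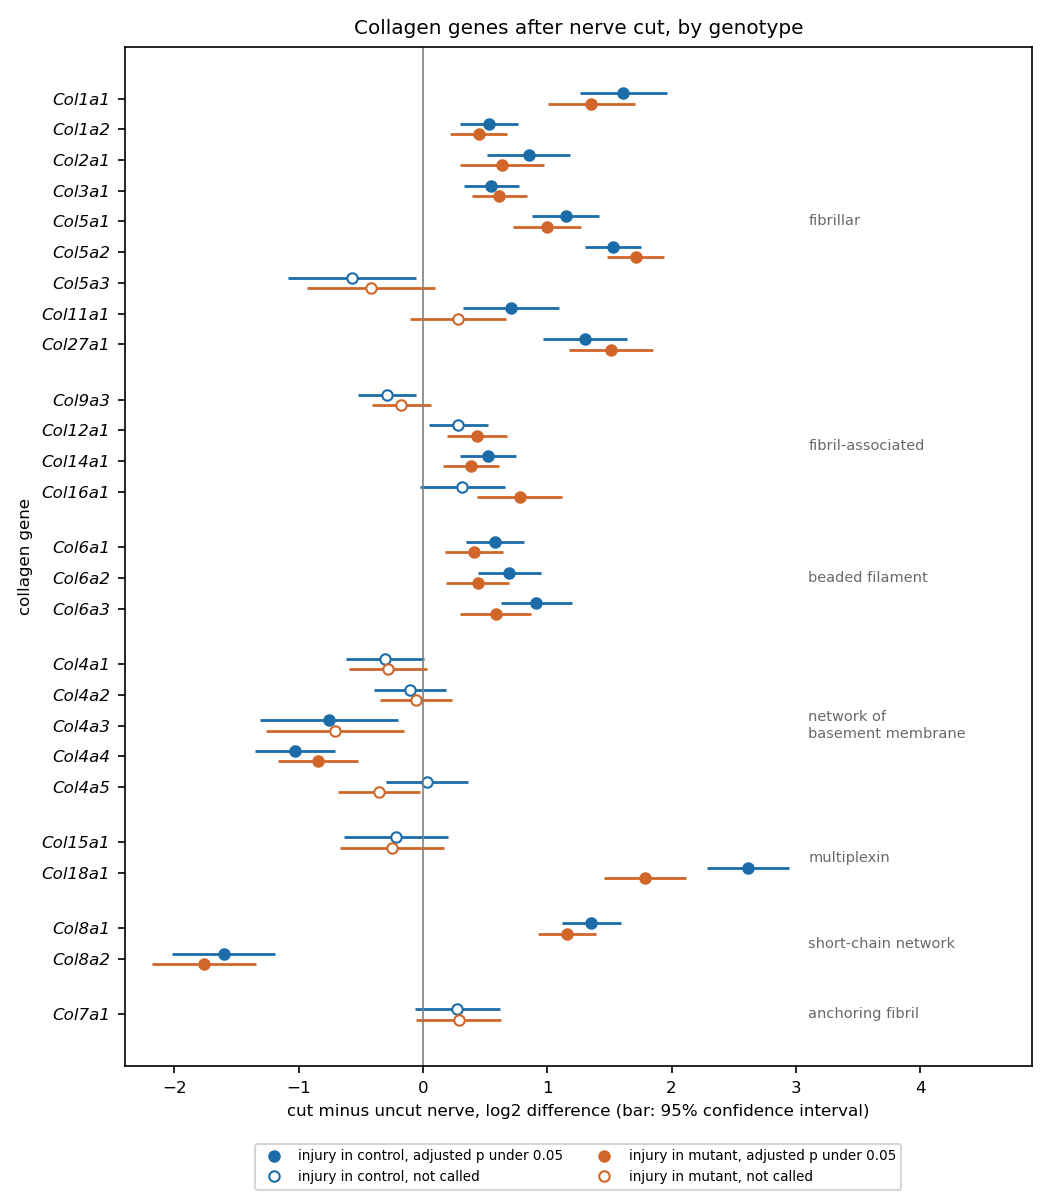
Cut minus uncut log2 difference (x axis) of the 26 measured collagen genes (y axis), ordered by structural class, in control (blue) and mutant (orange) mice, with 95% confidence intervals from limma. Filled points were called at an adjusted p under 0.05. Col18a1 lies farthest right (2.62 in control and 1.79 in mutant mice), Col8a2 farthest left (-1.60 and -1.76), and the collagen VI genes all lie right of 0.

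Fibrillar collagens made up the greatest part of the rise. Of the 10 listed, 9 were measured, and 8 rose in control mice and 7 in mutant mice, with 0 falling. That was 88.9% and 77.8%, where 22.8% and 18.1% of all genes rose. Col24a1, a fibrillar collagen outside the list, fell in both genotypes and is given with the other observations. Collagen I, the bulk fibre of connective tissue, is built from the products of Col1a1 and Col1a2. Col1a1 read 11.78 and 12.16 in control uncut nerve and 13.53 and 13.63 in control cut nerve, a rise of 1.61 (SE 0.15, limma adjusted p = 0.00017). In the mutant it read 11.81 and 12.07 in uncut and 13.36 and 13.23 in cut nerve, a rise of 1.36 (limma adjusted p = 0.00046). The cut arrays of both genotypes lay above every uncut array. Col1a2 read 13.71 and 13.66 in control uncut and 14.25 and 14.19 in control cut nerve, a rise of 0.53 (SE 0.10, limma adjusted p = 0.0044). In the mutant it went from 13.64 and 13.79 to 14.21 and 14.12, a rise of 0.45 (limma adjusted p = 0.010). That mutant call was lost when mutant cut replicate 1 (adjusted p = 0.056) or mutant uncut replicate 1 (adjusted p = 0.060) was left out. Col3a1 encodes collagen III, which is laid down with collagen I in reticular fibres and early scar. It read 13.75 and 13.91 in control uncut and 14.40 and 14.37 in control cut nerve (0.55, SE 0.10, limma adjusted p = 0.0032), and rose by 0.62 in the mutant (adjusted p = 0.0023), from 13.79 and 13.83 to 14.42 and 14.43.

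These genes have more than 1 probe set above the filter, and the size of their change depended on which one was read. For Col1a1 the dimmer probe set gave 0.41 in control mice (adjusted p among kept probe sets = 0.052, not called) and 0.75 in the mutant (0.0053). For Col1a2 and Col3a1 the order was the other way, since the brighter probe sets gave the smaller changes. The dimmer probe set of Col1a2 rose by 1.21 in control and 1.11 in mutant mice, and that of Col3a1 by 1.66 and 1.74. The brighter Col1a2 and Col3a1 probe sets read 13.64 to 14.43 on every array. Over the 15 collagen genes with several kept probe sets, the call was the same for all probe sets of 12 genes in control and 12 in mutant mice. The genes whose probe sets differed were Col1a1, Col12a1 and Col14a1 in control and Col11a1, Col12a1 and Col14a1 in mutant mice.

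**Figure D2:**
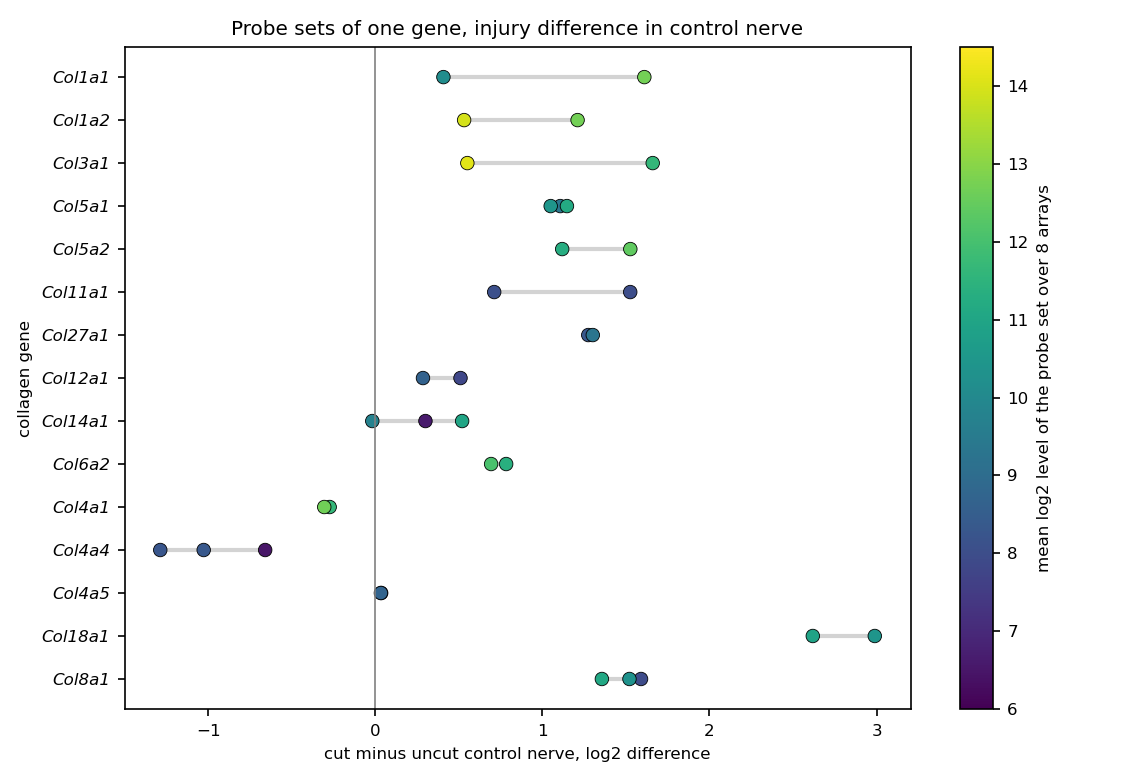
Cut minus uncut log2 difference in control mice (x axis) for every kept probe set of the 15 collagen genes with more than 1 of them (y axis), with 1 point per probe set, coloured by its mean log2 level over the 8 arrays. The probe sets of Col5a1, Col27a1 and Col8a1 lie close together, whereas those of Col1a1 (1.61 and 0.41 in control mice), Col1a2, Col3a1 and Col11a1 lie farther apart.

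Collagen V nucleates and limits the width of collagen I fibrils, and its genes did not move together. Col5a2 read 11.69 and 11.60 in control uncut and 13.16 and 13.19 in control cut nerve, a rise of 1.53 (SE 0.10, limma adjusted p = 2.9e-05), or 2.88-fold. Mutant nerve went from 11.55 and 11.66 to 13.37 and 13.26, a rise of 1.71 (limma adjusted p = 2.1e-05). The 4 cut arrays lay above the 4 uncut arrays with a wide gap. Col5a1 rose by 1.15 in control mice (10.66 and 10.60 to 11.89 and 11.67, SE 0.12, limma adjusted p = 0.00025). Its rise in mutant mice was 0.996 (10.52 and 10.73 to 11.63 and 11.60, limma adjusted p = 0.00060). Col5a3, the third chain, was not called in either genotype. It read 10.48 and 10.81 in control uncut against 10.12 and 10.03 in control cut nerve (-0.57, adjusted p = 0.077). Mutant arrays read 10.25 and 10.96 against 10.12 and 10.26 (-0.42). Leaving out mutant uncut replicate 1 or 2 put its control difference past the threshold (adjusted p = 0.017 for each).

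The other fibrillar genes, Col2a1, Col11a1 and Col27a1, are best known from cartilage, where collagens II and XI form thin fibrils. Col27a1 read 8.61 and 8.74 in control uncut and 10.12 and 9.83 in control cut nerve, a rise of 1.30 (SE 0.15, limma adjusted p = 0.00040). Mutant nerve went from 8.35 and 8.68 to 10.02 and 10.04, a rise of 1.51 (limma adjusted p = 0.00023). Cut and uncut arrays were far apart in both genotypes. Col2a1 rose by 0.85 in control mice (7.41 and 7.20 to 8.07 and 8.24, SE 0.14, limma adjusted p = 0.0029). The mutant rise was 0.64 (6.91 and 7.25 to 7.65 and 7.78, limma adjusted p = 0.012), a call lost without mutant cut replicate 2 (adjusted p = 0.067) or mutant uncut replicate 1 (adjusted p = 0.061). Col11a1 read 8.04 and 7.79 in control uncut and 8.49 and 8.76 in control cut nerve (0.71, SE 0.17, limma adjusted p = 0.011), and it no longer passed when replicate 2 of control cut nerve (adjusted p = 0.069) or replicate 2 of control uncut nerve (0.074) was left out. Mutant arrays read 7.71 and 7.82 in uncut and 8.25 and 7.85 in cut nerve (0.28, adjusted p = 0.22). A second Col11a1 probe set rose in both genotypes, by 1.53 in control and 1.17 in mutant mice (adjusted p among kept probe sets 1.0e-04 and 0.00046). Of 8 cartilage and bone markers, 6 (Acan, Matn1, Matn3, Ibsp, Bglap and Hapln1) were not measured above the filter. The mean level over the other 2, Comp and Sox9, was 8.15 to 8.39 in uncut and 7.92 to 8.05 in cut nerve. Comp fell in control (-0.83, limma adjusted p = 0.017) and mutant mice (-0.64, 0.049). Sox9 was not called (0.39 in control and -0.09 in mutant mice).

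Fibril-associated collagens changed by less than 2-fold. Of the 6 listed, 4 were measured, and 1 rose in control and 3 in mutant mice. The called share was 25% in control and 75% in mutant mice, beside 40.3% and 36% of all genes. Col14a1, whose product bridges neighbouring fibrils, read 10.79 and 10.87 in control uncut and 11.39 and 11.31 in control cut nerve (0.52, SE 0.10, limma adjusted p = 0.0044). Mutant arrays read 10.80 and 10.67 in uncut and 11.15 and 11.10 in cut nerve (0.39, limma adjusted p = 0.017). That mutant call was lost without mutant cut replicate 1 (adjusted p = 0.077), mutant cut replicate 2 (0.059) or mutant uncut replicate 2 (0.097). Neither of the other kept Col14a1 probe sets was called, with differences of -0.02 and 0.30 in control and -0.24 and -0.09 in mutant mice. So the rise of Col14a1 rests on 1 of 3 probe sets.

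Col16a1 and Col12a1 were called in mutant mice, the second of them with probe sets that did not agree. Col16a1 read 9.62 and 9.94 in mutant uncut and 10.62 and 10.50 in mutant cut nerve, a rise of 0.78 (SE 0.15, limma adjusted p = 0.0054). In control mice it read 9.77 and 9.82 in uncut and 10.26 and 9.96 in cut nerve (0.32, adjusted p = 0.12). Its arrays did not overlap in either genotype. Col12a1, which encodes a long fibril-surface collagen of tendon and fascia, read 8.32 and 8.38 in mutant uncut and 8.88 and 8.68 in mutant cut nerve (0.43, SE 0.10, limma adjusted p = 0.014). In control mice it read 8.60 and 8.57 in uncut and 8.91 and 8.83 in cut nerve (0.29, adjusted p = 0.059). The mutant call of Col12a1 was lost without mutant cut replicate 1 (adjusted p = 0.081) or mutant uncut replicate 1 (0.066). Its other kept probe set had the opposite pattern, called in control mice (0.51, adjusted p among kept probe sets = 0.030) and not in the mutant (0.45, 0.054). In control mice the gene was called in 4 of 12 alternatives that kept all compared arrays (adjusted p 0.019 to 0.083). Col9a3, a chain of the cartilage collagen IX, was not called (6.55 and 6.53 in control cut against 6.82 and 6.83 in control uncut nerve, adjusted p = 0.055). Its partners Col9a1 and Col9a2 did not pass the filter.

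Collagen VI forms the beaded filaments that link cells and basement membranes to the fibrillar matrix, and its 3 listed genes rose in both genotypes. Of all genes, 22.8% rose in control and 18.1% in mutant mice. Col6a3 had the greatest change of the 3, from 11.62 and 11.51 to 12.61 and 12.34 in control mice (0.91, SE 0.12, limma adjusted p = 0.00098). Mutant nerve went from 11.67 and 11.77 to 12.24 and 12.38 (0.59, limma adjusted p = 0.0086). Col6a2 went from 11.67 and 11.84 to 12.52 and 12.38 in control mice (0.69, limma adjusted p = 0.0020) and from 11.71 and 11.85 to 12.23 and 12.21 in the mutant (0.44, adjusted p = 0.016). The cut arrays of these genes lay above the uncut arrays throughout. Col6a1 went from 11.51 and 11.65 to 12.19 and 12.12 in control mice (0.58, limma adjusted p = 0.0032) and from 11.50 and 11.62 to 12.00 and 11.94 in the mutant (0.41, adjusted p = 0.016). All 3 mutant calls depended on single arrays. Without mutant cut replicate 2 the adjusted p was 0.056 for Col6a1, 0.065 for Col6a2 and 0.056 for Col6a3. Without mutant cut replicate 1 it was 0.073 for Col6a1 and 0.066 for Col6a2, and without mutant uncut replicate 1 it was 0.084 and 0.088.

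Col6a1 also carries the letters of the AP-1 motif, to which c-Jun dimers bind, near its start. RefSeq promoter windows of 300 bases (250 before and 50 after the start, GRCm38.p6) were given for 27 of the 34 genes, and both strands were searched. TGANTCA was found in 1 of the 27 (3.7%), beside 8.97% of 27025 genes. The CRE motif TGACGTCA was found in 0 of 27, beside 2.03%. The TATA box TATAAA was found in 5 (18.5%, beside 15.7%) and the CCAAT box in 11 (40.7%, beside 41.1%). A match is a run of letters and not a measured binding site, and the windows hold none of the introns or distant regions of these genes. The 250 bases before the Col6a1 start, chr10:76726045-76726294 on the minus strand, are shown because they hold that match, in capitals, 90 to 84 bases before the start.
Col6a1: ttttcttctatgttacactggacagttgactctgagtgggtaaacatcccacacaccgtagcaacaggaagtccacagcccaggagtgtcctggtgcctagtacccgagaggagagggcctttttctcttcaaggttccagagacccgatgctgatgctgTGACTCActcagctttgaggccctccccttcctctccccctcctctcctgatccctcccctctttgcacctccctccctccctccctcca
Col6a2 and Col6a1 are neighbours on chromosome 10, with no annotated protein-coding gene between them, and Col18a1 follows with 2 protein-coding genes between.

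Col18a1 showed the greatest change of the 26 collagen genes measured. It encodes collagen XVIII, a basement membrane collagen with heparan sulfate chains whose end fragment is endostatin. Its brighter probe set read 9.71 and 9.83 in control uncut and 12.59 and 12.19 in control cut nerve, a rise of 2.62 (SE 0.14, limma adjusted p = 1.4e-05), or 6.14-fold. In the mutant it went from 9.81 and 9.93 to 11.61 and 11.70, a rise of 1.79 (SE 0.14, limma adjusted p = 9.0e-05), or 3.45-fold. The mutant cut arrays thus lay between the uncut arrays and the control cut arrays. The second probe set had the same order, at 9.17 and 9.11 in control uncut, 12.28 and 11.99 in control cut, 9.17 and 9.20 in mutant uncut and 11.30 and 11.38 in mutant cut nerve. The other multiplexin, Col15a1, read 9.87 to 10.44 over all 8 arrays and was not called (-0.22 in control, -0.25 in mutant mice).

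The 250 bases before the Col18a1 start, chr10:77166531-77166780 on the minus strand, are shown since this gene also had the greatest genotype difference in cut nerve. Capitals mark the CCAAT box, read on the other strand, 210 to 206 bases before the start, and neither TGANTCA nor TGACGTCA occurs in the window.
Col18a1: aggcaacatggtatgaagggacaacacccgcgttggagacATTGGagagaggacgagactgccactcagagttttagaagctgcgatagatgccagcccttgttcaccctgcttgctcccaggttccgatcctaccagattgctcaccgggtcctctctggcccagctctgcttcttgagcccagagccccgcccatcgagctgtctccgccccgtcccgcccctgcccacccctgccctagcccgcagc
A second Col18a1 window in the same table, at a start inside the gene, is not printed.

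The collagen IV genes of the basement membrane did not share the rise. Of 6 listed, 5 were measured, 0 rose in either genotype, and 2 fell in control and 1 in mutant mice. The called share was 40% in control and 20% in mutant mice, beside 40.3% and 36% of all genes. Col4a1 and Col4a2 encode the chains found in nearly all basement membranes and neighbour each other in the genome. Col4a1 read 12.75 and 12.79 in control uncut and 12.54 and 12.38 in control cut nerve (-0.31, 95% interval -0.62 to 0.01), and the difference in the mutant was -0.28. Col4a2 read 11.14 to 11.55 over all 8 arrays, with differences of -0.11 and -0.05. Neither was called. The chains of Col4a3, Col4a4 and Col4a5 build the specialised network known from the kidney. Col4a4 read 8.90 and 8.76 in control uncut and 7.80 and 7.80 in control cut nerve, a fall of -1.03 (SE 0.14, limma adjusted p = 0.00097). Mutant nerve went from 8.64 and 8.87 to 8.07 and 7.75 (-0.84, limma adjusted p = 0.0029). Its arrays did not overlap in either genotype.

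Col4a3, whose span in the annotation overlaps that of Col4a4, was close to the filter. It read 6.69 and 6.45 in control uncut and 6.01 and 5.62 in control cut nerve (-0.75, SE 0.24, limma adjusted p = 0.038), and 6.86 and 6.43 against 6.24 and 5.64 in the mutant (-0.70, adjusted p = 0.053). It was above the array median on 2 uncut arrays alone, so it was measured through the group in which it was high. The control call did not hold when replicate 2 of control cut nerve (-0.56, adjusted p = 0.18) or replicate 2 of control uncut nerve (-0.88, 0.075) was left out, and the mutant difference was called without mutant cut replicate 1 (-1.01, adjusted p = 0.020). Col4a5 was not called (0.03 in control, -0.36 in mutant mice).

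The 2 genes of collagen VIII, a short-chain collagen of vessel walls and other sheet-like matrices, went in opposite directions. Col8a1 read 10.55 and 10.56 in control uncut and 11.86 and 11.96 in control cut nerve, a rise of 1.36 (SE 0.10, limma adjusted p = 5.5e-05). In the mutant it went from 10.41 and 10.35 to 11.62 and 11.45, a rise of 1.16 (limma adjusted p = 0.00014). The other kept probe sets of Col8a1 rose by 1.52 and 1.59 in control and by 1.11 and 1.14 in mutant mice. Col8a2 read 7.12 and 7.14 in control uncut and 5.73 and 5.33 in control cut nerve, a fall of -1.60 (SE 0.18, limma adjusted p = 0.00040). Mutant nerve went from 6.79 and 7.25 to 5.28 and 5.24 (-1.76, limma adjusted p = 0.00030). Col8a2 was above the array median on the 4 uncut arrays alone, so it too was measured through the group in which it was high, and its cut level lay below the median of all probe sets. The 250 bases before each start are shown because the genes parted. They are chr16:57754738-57754987 on the minus strand for Col8a1 and chr4:126286544-126286793 on the plus strand for Col8a2, and no searched motif occurs in either stretch.
Col8a1: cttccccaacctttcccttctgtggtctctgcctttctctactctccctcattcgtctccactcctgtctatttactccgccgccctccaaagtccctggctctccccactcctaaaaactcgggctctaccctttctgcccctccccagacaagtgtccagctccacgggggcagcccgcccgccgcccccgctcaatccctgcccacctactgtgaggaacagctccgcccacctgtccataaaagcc
Col8a2: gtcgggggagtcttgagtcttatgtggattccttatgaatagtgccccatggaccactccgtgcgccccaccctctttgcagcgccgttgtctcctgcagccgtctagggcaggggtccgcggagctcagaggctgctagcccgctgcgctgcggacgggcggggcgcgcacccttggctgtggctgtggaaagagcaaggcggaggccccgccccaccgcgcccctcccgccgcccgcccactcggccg
The anchoring fibril gene Col7a1 was not called (6.83 and 6.94 in control uncut, 7.19 and 7.13 in control cut nerve). The 7 genes below the filter had all probe sets between 4.12 and 6.58, except 1 of the 2 of Col9a1, which read 4.67 to 7.26 and reached the upper value on 1 array of mutant uncut nerve.

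**Figure D3:**
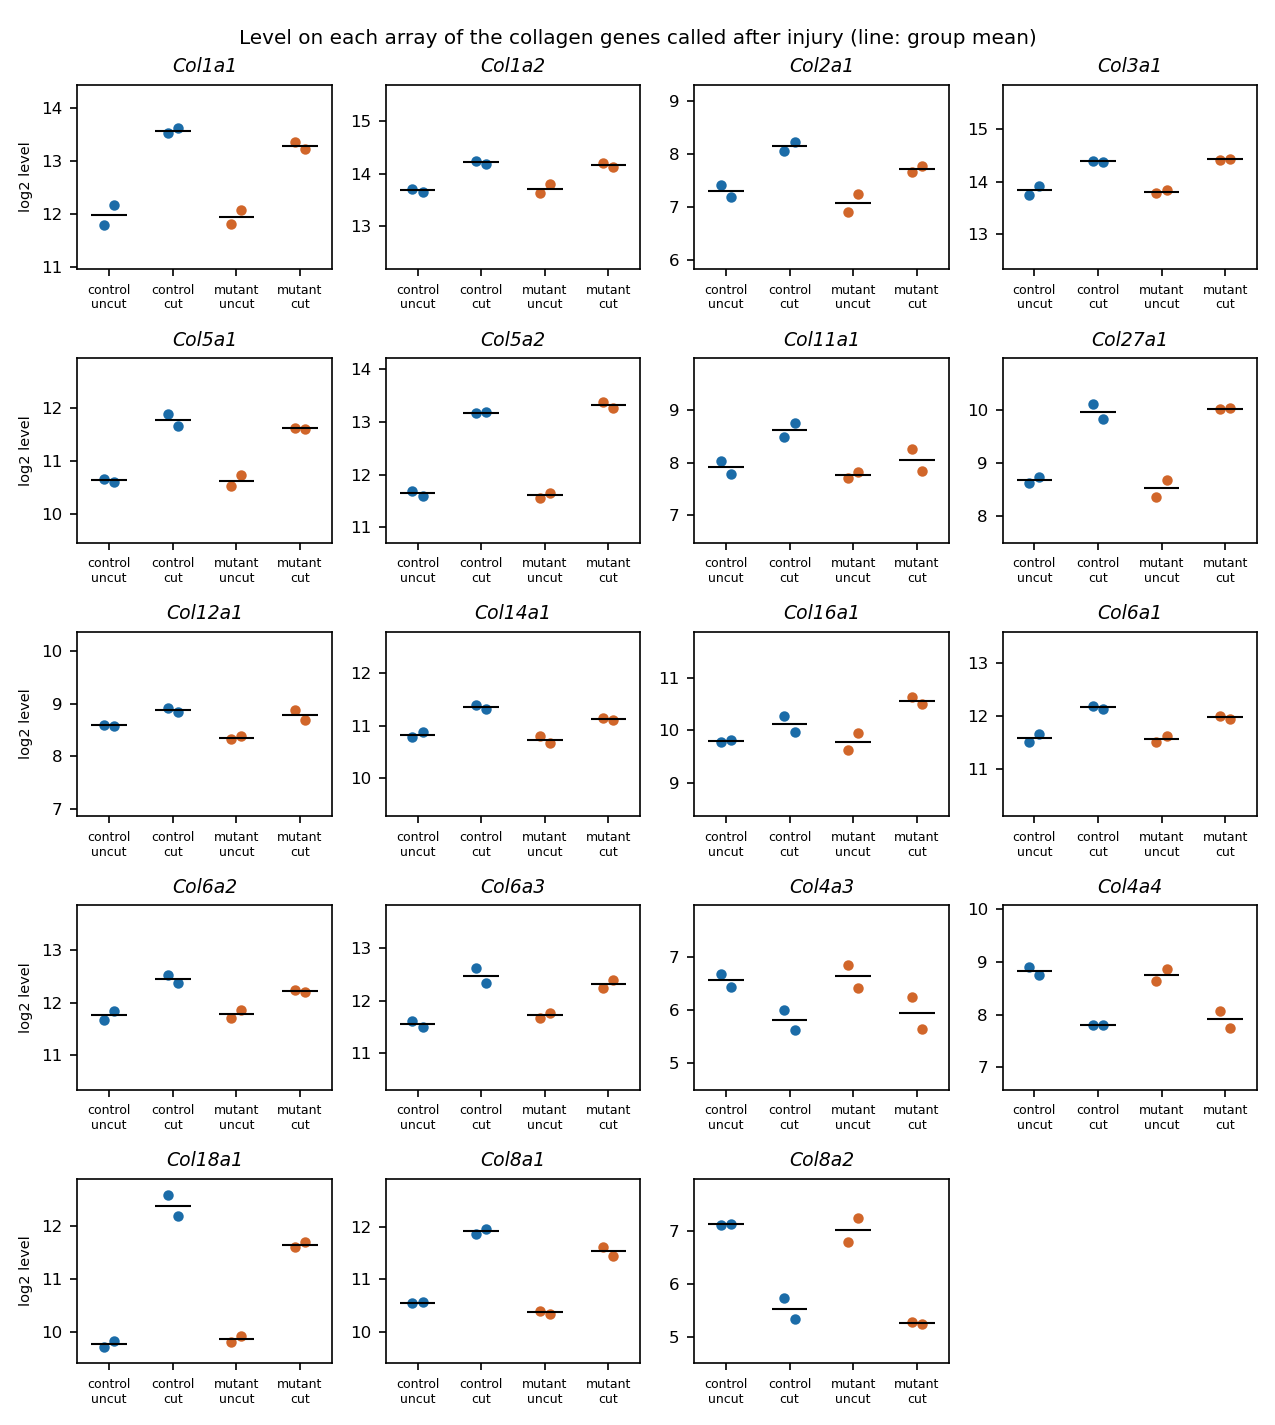
Log2 level on each of the 8 arrays for the 19 collagen genes called in at least 1 genotype, with one panel per gene, the 2 arrays of each group as separate points and the group mean as a line. The panels share the same height in log2 units but not the same start, so slopes can be compared between genes and levels cannot. The cut arrays of Col18a1 in mutant mice (11.61 and 11.70) sit below those of control mice (12.59 and 12.19).

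Markers of several cell types moved with the cut as well, and their part in the collagen changes was not tested. Of all genes tested, 40.3% were called in control and 36% in mutant mice. The share was near that for fibroblast markers (37.5% in each genotype) and epithelial markers (40% in each). For endothelial markers it was 14.3% in control and 42.9% in mutant mice. Of 8 fibroblast markers, 0 rose and 3 fell in each genotype, and their mean level was 12.06 to 12.22 in uncut and 11.62 to 11.89 in cut nerve. All 6 perineurial markers fell in control mice and 5 in the mutant, with a mean of 11.04 to 11.23 in uncut and 9.97 to 10.23 in cut nerve. The 6 macrophage markers all rose in both genotypes, to a mean of 11.97 to 12.14. Of 6 skeletal muscle markers, 5 rose in control mice and 6 in the mutant, from a mean of 11.57 to 12.53 to one of 13.37 to 14.07. Of 6 mural cell markers, 3 fell in each genotype, and of 7 endothelial markers 1 fell in control and 3 in mutant mice. The 4 measured markers of myelinating Schwann cells all fell in both genotypes. Of 6 markers of denervated Schwann cells, 6 rose in control and 5 in mutant mice. Their mean was 7.09 to 7.38 in uncut nerve, 11.29 and 11.46 in control cut and 9.73 and 10.02 in mutant cut nerve. Among them Gap43 and Olig1 lay below the array median (6.59 to 6.65) on all uncut arrays. So these genes were measured through the cut arrays on which they were high. Ncmap, a myelinating marker, was in the same way measured through the uncut arrays. Of 4 measured adipocyte markers, 2 fell in each genotype, from a mean of 11.30 to 11.98 to one of 9.55 to 10.68. Of 5 measured epithelial markers, 2 rose in control mice, and in the mutant 1 rose and 1 fell. Their mean was 6.23 and 6.32 in control uncut, 7.70 and 7.77 in mutant uncut and 7.78 to 8.28 in cut nerve. Krt5, the epithelial marker that fell, read 6.79 and 6.77 in mutant uncut nerve and lay below the array median on all other arrays. So Krt5 was measured through the group in which it was high.

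The second question was whether loss of c-Jun changed collagen transcripts. In cut nerve 0 of the 26 collagen genes were called between mutant and control mice by limma, where 1.09% of all genes were called (0.38% higher and 0.711% lower). At an unadjusted p under 0.05 there were 7 of 26 (26.9%), beside 8.61% of all genes. The median difference over the 26 was -0.12, beside -0.01 over all genes. The arrays of the 2 genotypes did not overlap in 16 of 26 (61.5%), beside 34.6% of all genes. The 7 genes were Col18a1, Col8a1, Col11a1, Col2a1 and Col14a1, with negative differences, and Col16a1 and Col9a3, with positive ones.

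Col18a1 came closest to the threshold. It read 12.59 and 12.19 in control cut and 11.61 and 11.70 in mutant cut nerve, a difference of -0.74 (SE 0.14, 95% interval -1.07 to -0.41, limma adjusted p = 0.070), with both mutant arrays below both control arrays. In a fit with each probe set as its own unit, the second probe set passed (-0.79, adjusted p = 0.032 among kept probe sets) and the brighter one did not (adjusted p = 0.083). The brighter one was not called in any of the 8 fits that left out 1 array, with differences from -0.93 to -0.54 and adjusted p from 0.057 to 0.29. Of 6 markers of denervated Schwann cells, 4 were called as lower in the mutant after the cut. Their mean level was 11.29 and 11.46 in control and 9.73 and 10.02 in mutant cut nerve, and their part in the Col18a1 difference was not tested. Among the 4 measured markers of myelinating Schwann cells 1, Mbp, was called as higher in the mutant (0.99, limma adjusted p = 0.021). In each other marker list 0 were called by limma, where 1.09% of all genes were called. At an unadjusted p under 0.05 there were 0 of 8 fibroblast and 0 of 7 endothelial markers. There were also 1 of 6 perineurial, 1 of 6 mural and 1 of 5 epithelial markers, beside 8.61% of all genes. The mural marker was Cspg4, which is also counted among the collagen receptors below.

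The other genotype differences in cut nerve were smaller. Col8a1 read 11.86 and 11.96 in control and 11.62 and 11.45 in mutant cut nerve (-0.38, 95% interval -0.61 to -0.15, adjusted p = 0.21). Col11a1 read 8.49 and 8.76 against 8.25 and 7.85 (-0.57, 95% interval -0.96 to -0.19, adjusted p = 0.27). The second Col11a1 probe set gave a smaller difference (-0.32, limma adjusted p among kept probe sets = 0.53). Col2a1 read 8.07 and 8.24 against 7.65 and 7.78 (-0.44, adjusted p = 0.38). In each the mutant arrays lay below the control arrays, without passing the test over all genes. Col16a1 had the opposite order, at 10.26 and 9.96 in control and 10.62 and 10.50 in mutant cut nerve (0.45, 95% interval 0.11 to 0.79, adjusted p = 0.36). For Col9a3 the difference was 0.28 (adjusted p = 0.43) and for Col14a1 -0.23 (adjusted p = 0.58). The widest 95% interval of any collagen gene reached 0.56 log2 units to each side of its estimate and the narrowest 0.22. Differences inside such bounds could not be told from 0 with 2 arrays a group. These intervals are not adjusted over all genes, and some differences outside them, such as -0.74 for Col18a1, were not called either.

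In uncut nerve 0 of 26 collagen genes were called, where 0% of all 12093 genes were called, and 0 collagen genes had an unadjusted p under 0.05, beside 2.66% of all genes. The greatest difference in size was -0.23, for Col12a1. Arrays did not overlap in 5 of 26 (19.2%), beside 27.1% of all genes. Among the markers, 4 of 5 epithelial, 3 of 7 endothelial and 1 of 6 denervated Schwann cell markers had an unadjusted p under 0.05. No marker of the other lists did. Of the epithelial markers, Krt5 and Trp63 were above the array median on mutant arrays alone. The part of these cells in the collagen values was not tested. Whether the response to the cut itself differed between genotypes was tested by the interaction, the mutant response minus the control response. It called 0 of 26, where 0.165% of all genes were called, and at an unadjusted p under 0.05 there was 1 of 26 (3.85%, beside 6.04% of all genes), Col18a1 (-0.83, SE 0.20, adjusted p = 0.26). Its second probe set gave -0.83 as well (adjusted p = 0.20 among kept probe sets). For Col16a1 the interaction was 0.46 (adjusted p = 0.85).

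**Figure D4:**
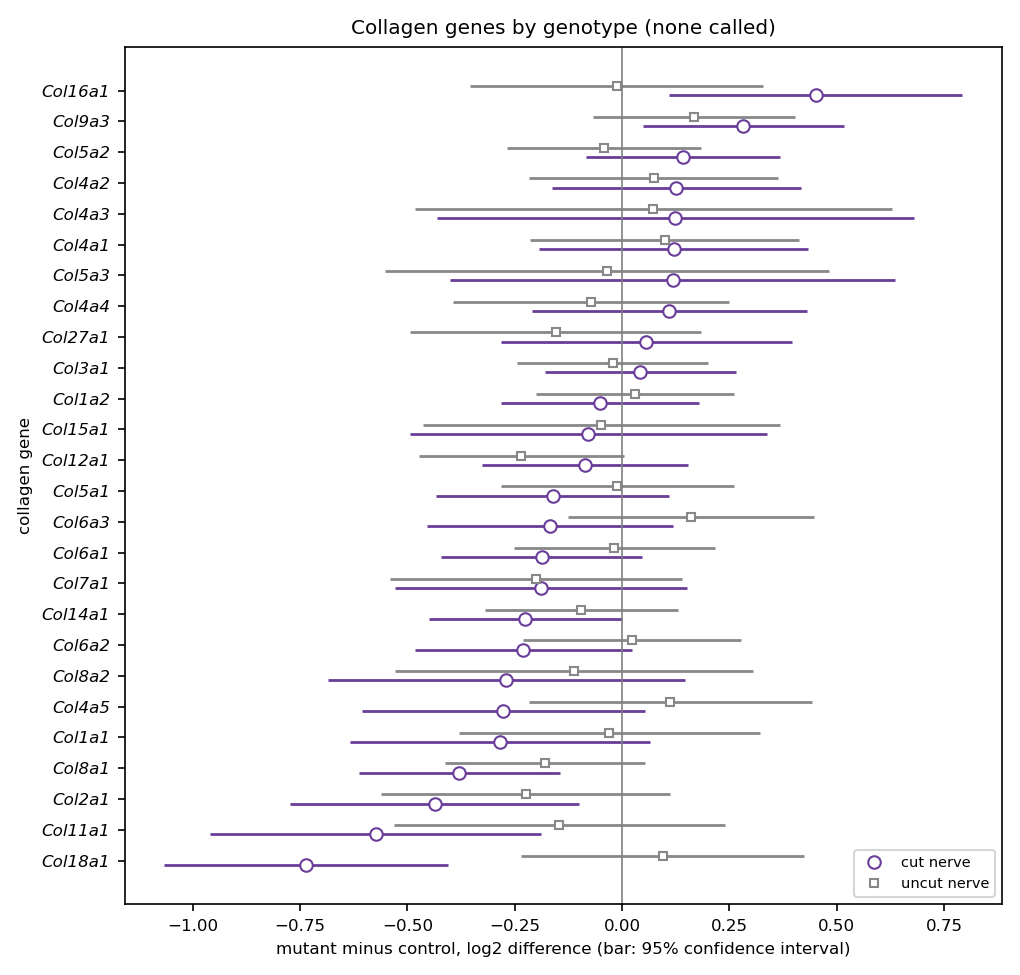
Mutant minus control log2 difference (x axis) for the 26 measured collagen genes (y axis), in cut nerve (circles) and uncut nerve (squares), with 95% confidence intervals from limma. No point was called at an adjusted p under 0.05. In cut nerve Col18a1 (-0.74) is farthest left and Col16a1 (0.45) farthest right, and the uncut points stay between -0.23 and 0.17.

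Collagen chains are modified, folded and secreted with the help of dedicated enzymes. Of 21 measured genes for modifying enzymes and chaperones, 7 rose and 3 fell in control mice and 5 rose and 3 fell in the mutant (47.6% and 38.1% called, near the 40.3% and 36% of all genes). P3h2, a prolyl 3-hydroxylase, fell by 1.02 in control mice (9.48 and 9.30 to 8.51 and 8.22, limma adjusted p = 0.0014) and by 0.60 in the mutant (adjusted p = 0.017). P4ha1, a catalytic chain of the prolyl 4-hydroxylase that stabilises the helix, fell by 0.87 (9.99 and 9.97 to 9.24 and 8.97, adjusted p = 0.0026) and by 0.78. The genes that rose included Plod3, a lysyl hydroxylase and glycosyltransferase (0.87, adjusted p = 0.0046), and P3h3 (0.70, adjusted p = 0.0093). In the mutant neither was called (0.17 and 0.19). Serpinh1, the collagen chaperone, was not called (0.22 and 0.21).

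Outside the cell, procollagen is trimmed and crosslinked. Of 9 measured genes for these steps, 5 rose and 1 fell in control mice, and 2 rose and 2 fell in the mutant (66.7% and 44.4% called, beside 40.3% and 36% of all genes). Bmp1, which removes the C-terminal propeptide, read 9.14 and 9.19 in control uncut and 10.24 and 9.98 in control cut nerve (0.94, limma adjusted p = 0.0010), and its mutant difference was 0.38 (adjusted p = 0.053). Loxl3, a lysyl oxidase, rose by 0.97 in control (adjusted p = 0.00093) and 0.52 in mutant mice (adjusted p = 0.017). Lox, the founding member of that family, went the other way. It read 12.21 and 12.17 in control uncut and 11.32 and 11.33 in control cut nerve (-0.86, limma adjusted p = 0.0015), and fell by 1.21 in the mutant (adjusted p = 0.00036). Tll1, a relative of Bmp1, fell in the mutant (-0.81, adjusted p = 0.012) and was not called in control mice (-0.26).

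Among 13 measured receptors that bind collagen, 4 rose and 5 fell in control mice, and 4 rose and 3 fell in the mutant (69.2% and 53.8% called, beside 40.3% and 36% of all genes). Lair1, an inhibitory collagen receptor of leukocytes, rose from 5.47 and 5.71 to 7.93 and 7.80 in control mice (2.27, limma adjusted p = 1.1e-05) and by 2.45 in the mutant. All 4 uncut arrays lay below the array median (6.59 to 6.65), so Lair1 was measured through the cut arrays on which it was high. Cd44 rose by 2.12 and 2.41. The fall was led by Cspg4, a proteoglycan that binds collagen VI (-0.96 in control, adjusted p = 0.00097, and -0.62 in mutant mice), and Adgrg6, an adhesion receptor of Schwann cells that binds collagen IV (-0.75, adjusted p = 0.0056, and -0.42 in the mutant, not called). All 6 macrophage markers rose as well, as given above, and their part in the rise of Lair1 and Cd44 was not tested. Of 10 measured small proteoglycans that sit on collagen fibrils, 2 rose and 3 fell in each genotype (50% called, beside 40.3% and 36% of all genes). Epyc rose by 1.97 in control (7.83 and 8.09 to 9.81 and 10.05, limma adjusted p = 3.3e-05) and 1.53 in mutant mice. Omd, Fmod and Ogn fell by 1.61, 1.54 and 1.50 in control and by 1.47, 1.06 and 1.35 in mutant mice. In cut nerve 0 genes of any of these 4 lists were called between genotypes by limma. At an unadjusted p under 0.05 there were 3 of 21 modifying enzymes, 5 of 9 processing and crosslinking enzymes, 1 of 13 receptors and 1 of 10 proteoglycans, beside 8.61% of all genes. The interaction called 0 genes of these lists as well, with 3 of 21, 4 of 9, 0 of 13 and 1 of 10 at an unadjusted p under 0.05, beside 6.04% of all genes, so a gene called in 1 genotype alone is not shown to differ between them.

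**Figure D5:**
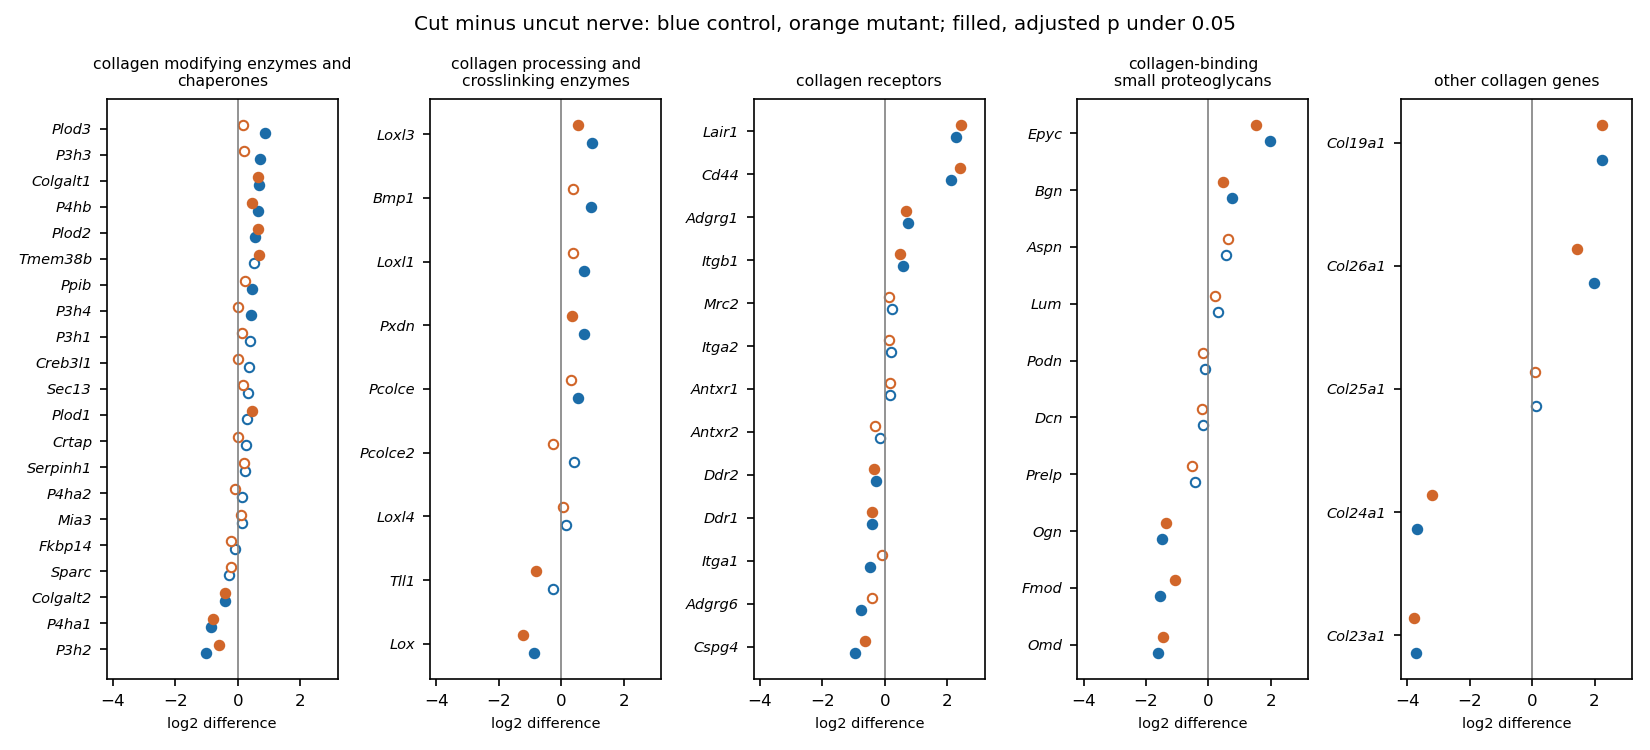
Cut minus uncut log2 difference in control (blue) and mutant (orange) mice for all measured genes of the related lists, with 1 panel per list and filled points for an adjusted p under 0.05; the last panel holds collagen genes outside the list of 34. Lair1, Cd44 and Epyc lie right of 1 in both genotypes, and Omd, Fmod and Ogn lie left of -1 in both.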

How the data were processed

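Each of the 8 arrays was deposited as log2 values made by the authors with RMA in the affy package, per the submitters' processing notes; their versions are not given. RMA forces the arrays to a common distribution, so a shift of all genes would not be seen. A probe set (45101 in all) was kept if above its array median on at least 2 arrays, and named only where the platform annotation gave 1 symbol (34945). The brightest kept probe set, by its mean over all arrays, stood for a gene. limma 3.58.1 in R 4.3.3 fitted 1 mean per group on all 8 arrays, without a replicate block, and Benjamini-Hochberg adjustment covered all 12093 genes (two-sided). The authors' log2 values were not renormalised. The procedure was tested on simulated data. All collagen genes called in any comparison are given in full, and up to 4 called genes of each related list with the greatest change after injury. The members, lists and tests were chosen with earlier results of these data known. The alternatives varied filter, probe set, scaling, spread, block and arrays. Promoter sequences came from RefSeq (GRCm38.p6), with no sequence for Col1a1, Col2a1, Col4a3, Col5a2, Col9a3, Col12a1 and Col14a1. Array number limits the precision.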

Additional observations from a re-analysis of the deposited data

How the results depend on the processing

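There were 34 collagen calls after injury, both genotypes together. Of these, 27 held in each alternative that kept all compared arrays and also kept the gene. The filter at the 75th percentile kept the gene for 29 of the 34. Calls lost when 1 array was left out are given with the genes above. Leaving out 1 array gave 13 to 14 higher and 2 to 4 lower in control mice, and 10 to 16 higher and 2 to 4 lower in mutant mice. The count of lower genes in control mice (3) was 1 with a filter at the 75th percentile, which removes Col4a3 and Col8a2 by construction, and 5 with the replicate number as a block, which adds Col5a3 and Col9a3. In mutant mice (2) it was 4 with no filter, which lets in Col9a2 and Col13a1, and 1 with the 75th percentile filter. The replicate numbers are not stated to pair pools, and deviations of same-numbered arrays correlated at 0.02 to 0.34, so the block was not used in the main results. In cut nerve the genotype count (0) was 1, Col18a1, with kept probe sets averaged per gene, with probe sets as units, with trended and robust variance, and with the dimmest kept probe set of a gene, a setting chosen after seeing the data. Under that last setting Col14a1 in mutant mice reversed to -0.0922, not called. The genotype comparison in uncut nerve and the interaction gave 0 in each alternative. Median centring and further quantile normalisation moved the median of all genes by under 0.1 log2 units.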

Other observations

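Collagen genes outside the list included some with the widest changes of any collagen on the arrays. Of 5 such genes measured (Col19a1, Col23a1, Col24a1, Col25a1 and Col26a1), 2 rose and 2 fell in each genotype (80% called, beside 40.3% and 36% of all genes), and Col25a1 was not called. Col23a1, a transmembrane collagen, read 10.17 and 10.11 in control uncut and 6.44 and 6.38 in control cut nerve (-3.73, SE 0.26, limma adjusted p = 4.2e-05). It fell by 3.77 in the mutant. Both control cut arrays and mutant cut replicate 1 (5.83) lay below the array median (6.59 to 6.65). So Col23a1 was kept only through the uncut arrays on which it was high. Col24a1, a fibrillar collagen, read 7.43 and 7.76 in control uncut and 4.07 and 3.73 in control cut nerve (-3.70, SE 0.15, limma adjusted p = 4.0e-06) and fell by 3.19 in the mutant. Its cut level was near the 10th percentile of the arrays (3.92 to 3.97), so the size of that fall is not well measured, and the gene was kept only through the uncut arrays on which it was high. Col26a1 rose from 6.85 and 6.83 to 9.04 and 8.60 in control mice (1.98, limma adjusted p = 0.00018) and by 1.44 in the mutant. Col19a1 rose from 5.91 and 5.39 to 7.22 and 8.59 (2.25, SE 0.43, limma adjusted p = 0.0048), with its control cut replicates far apart. All 4 of its uncut arrays lay below the array median (6.59 to 6.65), so it was kept only through the cut arrays. These genes were taken as the collagens that the list leaves out, with earlier results of these data known.

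The 2 pools of mutant uncut nerve differed in one direction over the collagen genes. Replicate 2 was higher than replicate 1 for 22 of the 26 measured, whereas replicate 1 was higher for 50.5% of all genes. The median difference was -0.17 (replicate 1 minus replicate 2), beside 0.08, -0.02 and 0.06 in control cut, control uncut and mutant cut nerve.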
